A study of Mus musculus with 6 samples.

Results

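The genes described here handle iron and heme: *Tfrc*, *Slc11a2*, *Steap3* and *Steap4* (entry of iron), *Fth1*, *Ftl1* and *Ncoa4* (storage and release), *Slc40a1* (export), *Hmox1* (breakdown of heme) and *Ireb2* (sensing of iron). They are 10 of the 22601 genes listed in the table of read counts, each found by its symbol, and all 10 passed the filter on low counts that left 13483 genes to test. The data are RNAseq of 3 WT and 3 *Slc37a2* KO mouse libraries, made to compare osteoclasts with and without Slc37a2, a transporter of sugars. The KO mice were homozygous for the Slc37a2tm2a(KOMP)Wtsi allele on C57BL/6N, from a single line of targeted embryonic stem cells (JM8A3.N1), and the WT mice were their littermates. The labels describe osteoclasts grown from bone marrow macrophages (BMMs) for 5 days in both genotypes, with M-CSF at 2 ng/ml and RANKL at 10 ng/ml. The RNAseq methods of the study describe RNA of whole femurs and tibias of both sexes instead. Each column was headed by genotype, animal number, an F and 11 weeks as the age. What the F stands for is not spelled out there, and no replicate number is given, so libraries are named here by animal number: K090, L080 and L082 (WT) and K089, L078 and L081 (*Slc37a2* KO).

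Most iron enters a cell bound to transferrin, which the transferrin receptor carries into endosomes. There it is reduced by a Steap enzyme and passed to the cytosol by Slc11a2 (DMT1). Spare iron is kept inside ferritin shells of heavy and light chains or leaves through ferroportin, the product of *Slc40a1*. Iron regulatory proteins (IRP1 from *Aco1*, IRP2 from *Ireb2*) bind hairpins called iron-responsive elements in some of these transcripts when iron is scarce, which blocks translation where the hairpin lies before the coding sequence and protects the transferrin receptor transcript where hairpins lie behind it. Osteoclasts, which resorb bone, are rich in mitochondria and are known to raise the transferrin receptor as they mature. Macrophages that clear red cells are known for high heme oxygenase and ferroportin.

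The hairpins are shown because iron regulatory proteins bind elements of this type, and because a gene's read count cannot show an effect on translation. Sequences were read from the GRCm38 genome with GENCODE M21 transcripts. The search asked for a bulged C, 5 paired bases, the loop CAGTGN and at least 4 of 5 lower pairs, on the transcribed strand, with G to T pairs allowed. Capitals mark the 6 bases of the loop.
Tfrc hairpin 1, 3′ UTR, chr16:32631220-32631246, plus strand: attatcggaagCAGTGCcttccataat
Tfrc hairpin 2, 3′ UTR, chr16:32631599-32631625, plus strand: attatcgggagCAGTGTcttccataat
Tfrc hairpin 3, 3′ UTR, chr16:32631664-32631690, plus strand: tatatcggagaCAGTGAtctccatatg
Tfrc hairpin 4, 3′ UTR, chr16:32631711-32631737, plus strand: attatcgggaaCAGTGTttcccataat
Fth1 hairpin, 5′ UTR, chr19:9982733-9982759, plus strand: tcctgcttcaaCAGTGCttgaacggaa
Ftl1 hairpin, 5′ UTR, chr7:45459780-45459806, minus strand: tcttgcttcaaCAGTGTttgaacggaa
Slc40a1 hairpin, 5′ UTR, chr1:45925466-45925492, minus strand: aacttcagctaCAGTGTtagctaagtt
Slc11a2 hairpin, 3′ UTR, chr15:100395153-100395180, minus strand: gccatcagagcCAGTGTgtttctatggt

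All 4 *Tfrc* hairpins lay in exon 19, the last exon of the main transcript. The *Fth1*, *Ftl1* and *Slc40a1* hairpins lay in exon 1, before the coding sequence. The *Slc11a2* hairpin, 28 bases long, was met only when 1 unpaired base was allowed in the upper stem. It lay in exon 16 of a transcript variant, behind the coding sequence, while the main transcript held none, and a count per gene cannot separate these transcripts. Among 21157 genes with an annotated UTR, 17 (0.0804%) held a hairpin without the unpaired base, 4 members among them. Allowing it gave 42 genes (0.199%), 5 members among them. *Hmox1*, *Steap3*, *Steap4*, *Ncoa4* and *Ireb2* had no match, which says only that nothing in their annotated UTRs met all conditions of the search. A match is a description of sequence, and no binding was measured.

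**Figure D1:**
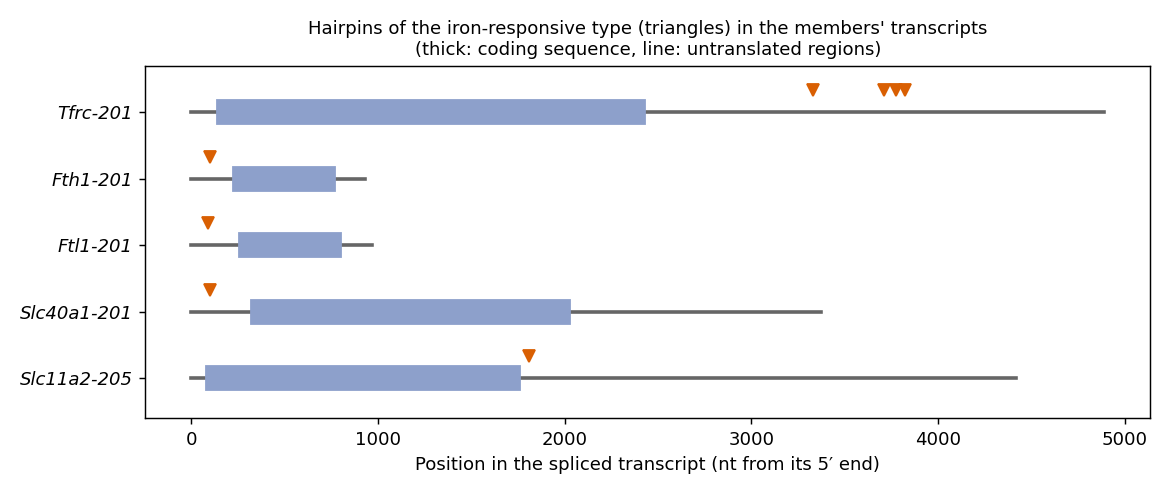
Positions of the hairpins along 5 spliced transcripts (x axis, nt from the 5′ end), with the coding sequence as a thick bar, untranslated regions as a line and hairpins as triangles. The 4 hairpins of Tfrc and the hairpin of Slc11a2 lie behind the coding sequence, and those of Fth1, Ftl1 and Slc40a1 lie before it.

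The libraries held 27552183 to 42522292 counts. *Slc37a2* itself stood at 2149 ± 292 CPM (counts per 1000000, scaled by TMM, here and below) in WT and 38.1 ± 6.66 in *Slc37a2* KO (SD, n = 3 each), a log2 fold change of −5.82 (SE 0.20, Benjamini-Hochberg adjusted p = 7.07e-04 in the quasi-likelihood test of edgeR). This was the only call among the 13483 genes (0.00742%), while 96 genes (0.712%) had an unadjusted p below 0.05 by the same test, and in 581 genes (4.31%) the 3 WT and 3 KO libraries did not overlap. The 15 osteoclast markers used to check the labels were high in every library, summing to 43472 to 61833 CPM before TMM in WT and 48081 to 75708 in *Slc37a2* KO. Summed levels of 12 macrophage markers were 5540.5 to 9694 in WT and 5484 to 9218 in *Slc37a2* KO. This sum understates how far single macrophage markers differed between libraries. Their median deviation from the mean over libraries ran from −1.35 (K089) to 1.16 (K090) log2 units after TMM. Osteoblast and stromal markers (12 genes) summed to 873 to 1600 and 630.2 to 1949.5, neutrophil markers (6 of 8 with a row) to at most 1.40, and red cell markers (4 of 10 with a row, with no row used here for *Hba-a2*, *Hbb-bs* or *Hbb-bt*) to at most 0.408. Library L078 (*Slc37a2* KO) lay with WT K090 and L080 in the osteoclast and macrophage sums, and the members' log2 fold changes are given below with and without it.

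None of the 10 iron and heme genes was called between genotypes, none had an unadjusted p below 0.05, and in none did the groups fail to overlap. These counts of 0 stand beside backgrounds of 0.00742%, 0.712% and 4.31%. The estimate was higher in *Slc37a2* KO for 6 genes and lower for 4, from −0.61 to 0.43 on the log2 scale, with a median of 0.06 beside −0.02 over all genes tested. Over all genes tested, 5899 estimates were higher and 7584 lower. Every member had an adjusted p of 0.969 by edgeR's quasi-likelihood test. A p that misses the threshold does not show equal levels, and the intervals given below give the range of differences the data allow. An exact permutation test of 3 libraries against 3 could not go below p = 0.1. In RNA of a whole culture, fewer cells of a type and less RNA per cell cannot be told apart.

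Among the genes of iron entry, *Tfrc*, the transferrin receptor (chr16:32608920-32632794), varied most. It was at 1242, 1572 and 2629 CPM in WT K090, L080 and L082 and at 3239, 1275 and 2810.2 CPM in *Slc37a2* KO K089, L078 and L081. Both genotypes thus held libraries at the low and the high end: L078 sat beside the lowest WT library, and L082 lay near the 2 highest KO libraries. The means were 1814 ± 725 and 2442 ± 1032 CPM (SD, n = 3), with a log2 fold change of 0.43 (SE 0.42, 95% interval −0.58 to 1.43). Its spread within genotypes was wider than that of 90.3% of the genes tested.

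*Slc11a2*, which moves iron out of endosomes (chr15:100387898-100425072), followed the same order in its 3 highest libraries. WT libraries stood at 139, 156 and 209 CPM and *Slc37a2* KO libraries at 258, 138 and 244 CPM, so that L078 was the lowest of all 6. The log2 fold change was 0.34 (SE 0.27, −0.30 to 0.98). An overlapping gene, *Gm5475*, held at most 11 counts in any library.

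*Steap3* and *Steap4* encode metal reductases of the endosome and the plasma membrane. *Steap3* (chr1:120190757-120272705) was at 95.5, 97.5 and 104 CPM in WT and at 124, 89.7 and 114 CPM in *Slc37a2* KO, a log2 fold change of 0.14 (SE 0.12, −0.16 to 0.44). The KO libraries lay on both sides of the WT libraries. *Steap4* (chr5:7960457-7982213) was at 63.8, 121 and 68.5 CPM in WT and at 67.9, 69.9 and 67.0 CPM in *Slc37a2* KO. One WT library, L080, stood apart and the remaining libraries lay close together. The *Steap4* log2 fold change of −0.30 (SE 0.24, −0.89 to 0.28) became 0.05 without L080, and neither value was called.

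**Figure D2:**
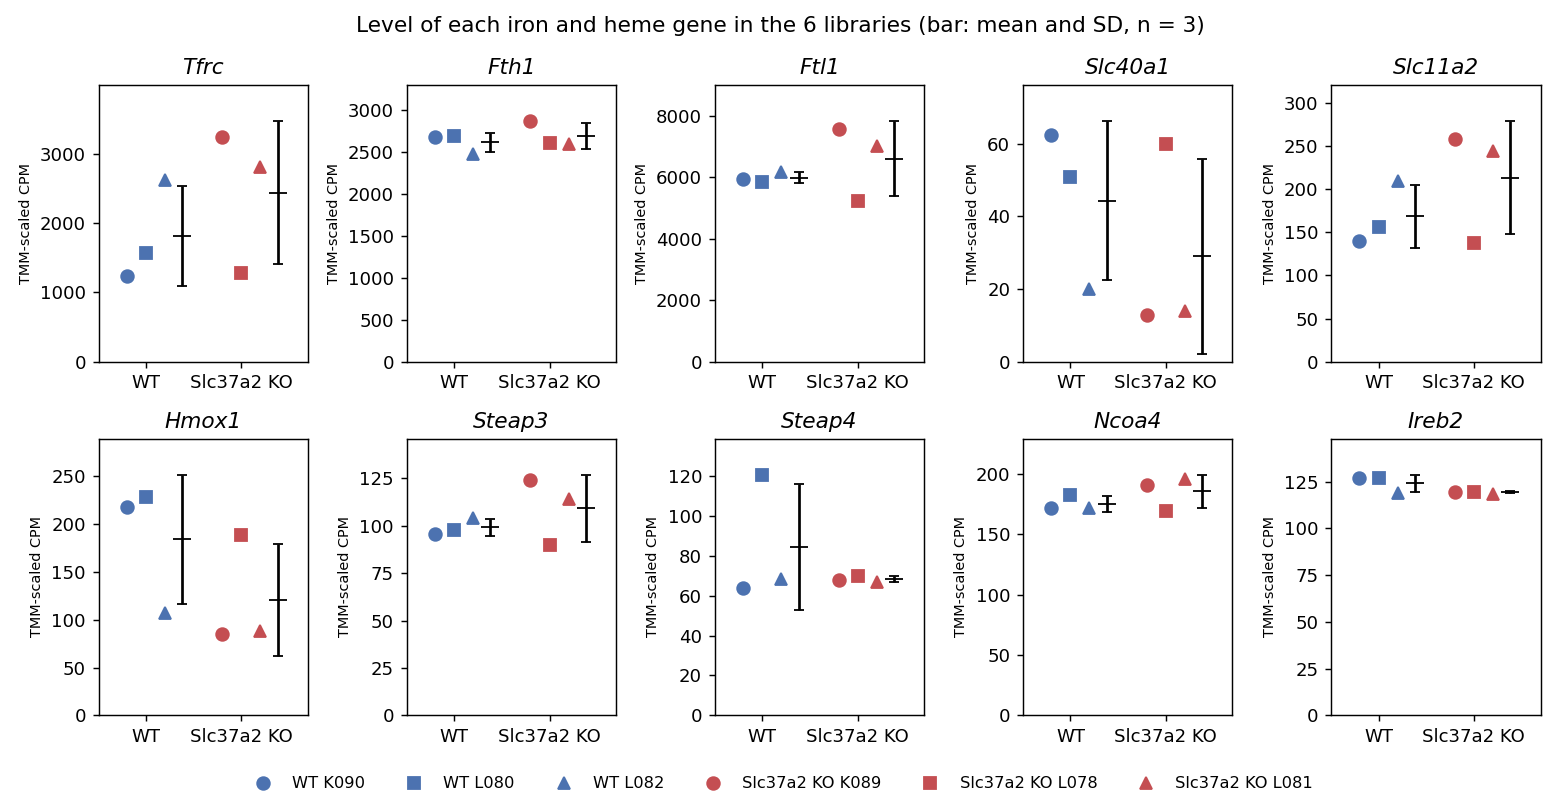
TMM-scaled CPM (y axis, from 0, own scale per gene) of the 10 iron and heme genes in each of 3 WT (blue) and 3 Slc37a2 KO (red) libraries, with mean and SD as black bars. In every panel the genotypes overlap. L078 lies with WT K090 and L080 for Tfrc, Slc11a2, Slc40a1 and Hmox1, and L080 stands alone for Steap4.

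The ferritin chains store iron. *Fth1*, the heavy chain, which oxidises iron for storage (chr19:9980598-9985098), was at 2679.7, 2686 and 2479 CPM in WT and at 2869, 2609 and 2591 CPM in *Slc37a2* KO. Its log2 fold change was 0.04 (SE 0.10, −0.21 to 0.29), and the highest library was 1.16 times the lowest. *Ftl1*, the light chain (chr7:45457944-45459884), was at 5937, 5841 and 6178 CPM in WT and at 7571, 5226 and 6999 CPM in *Slc37a2* KO. The WT libraries had an SD of 174 CPM, and the KO libraries, with the 2 highest and the lowest of the 6, had an SD of 1223 CPM. The *Ftl1* log2 fold change was 0.14 (SE 0.17, −0.28 to 0.56). Ferritin genes have processed copies in the genome that can share reads, so these counts are uncertain to that extent. *Ftl1-ps2*, looked up after its values were seen, held 6 to 21 counts per library beside at least 165309 for *Ftl1*, which 2 further annotated genes (*Gm22133* and *Gm10252*) overlap.

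The ratio of *Fth1* to *Ftl1* counts does not depend on the scaling of the libraries. It was 0.451, 0.460 and 0.401 in WT and 0.379, 0.499 and 0.370 in *Slc37a2* KO, with means of 0.437 ± 0.0316 and 0.416 ± 0.0721 (SD, n = 3). The difference of −0.0213 was smaller than the SD of either genotype. It came to −0.0629 without L078 and to 0.00161 without L081, so neither its size nor its direction held with 1 library left out. The ratio of *Tfrc* to *Fth1* counts, an import gene over a storage gene, was 0.463, 0.586 and 1.06 in WT and 1.13, 0.489 and 1.08 in *Slc37a2* KO. It was at most 0.586 in 3 libraries and at least 1.06 in the other 3, each side with both genotypes. The difference of KO minus WT was 0.198, or 0.404 without L078 and 0.0777 without K090.

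*Ncoa4*, the receptor that delivers ferritin to lysosomes for the release of its iron (chr14:32159865-32179855), was at 172, 183 and 172 CPM in WT and 191, 169.8 and 196 CPM in *Slc37a2* KO. The log2 fold change was 0.08 (SE 0.08, −0.10 to 0.26). *Ireb2*, which encodes IRP2 (chr9:54863789-54912530), was the steadiest member, at 127, 127 and 119 CPM in WT and 119, 119.7 and 119 CPM in *Slc37a2* KO. Its highest library was 1.07 times its lowest, and its spread within genotypes was wider than that of only 2.66% of the genes tested. The *Ireb2* log2 fold change of −0.06 (SE 0.05, −0.19 to 0.07) corresponds to a KO to WT ratio between 0.877 and 1.05.

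*Slc40a1*, the iron exporter ferroportin (chr1:45908068-45926523), split the libraries the opposite way and varied by more than any other member. It was at 62.3, 50.8 and 19.9 CPM in WT and at 12.9, 60.0 and 14.0 CPM in *Slc37a2* KO, so that its highest library was 4.82 times its lowest. Again L078 lay with K090 and L080, and L082 with K089 and L081. The means were 44.3 ± 21.9 and 29.0 ± 26.8 CPM, with a log2 fold change of −0.60 (SE 0.70, −2.30 to 1.09), and 98.5% of the genes tested had a narrower spread within genotypes.

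*Hmox1*, the inducible heme oxygenase that opens heme and frees its iron (chr8:75093621-75100589), split the libraries in the same way. It was at 218, 228 and 107 CPM in WT and at 85.1, 188 and 88.0 CPM in *Slc37a2* KO. The KO mean of 121 ± 58.8 CPM was below the WT mean of 184 ± 67.4 CPM, with a log2 fold change of −0.61 (SE 0.41, −1.61 to 0.38), an unadjusted p of 0.186 by the quasi-likelihood test of edgeR and an adjusted p of 0.969. Of the 10 genes it had the lowest unadjusted p.

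**Figure D3:**
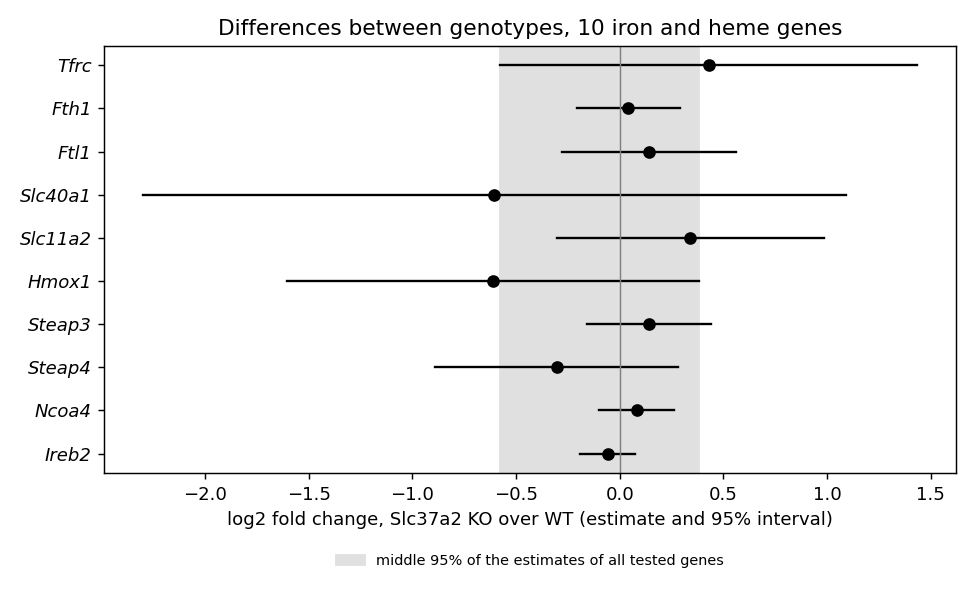
Difference between genotypes as log2 of KO over WT (x axis) for each of the 10 genes, as estimate (point) and 95% interval (line) of the edgeR fit, over a grey band that holds the middle 95% of the estimates of all 13483 genes tested. Every interval crosses 0, from the narrow one of Ireb2 (−0.19 to 0.07) to the wide one of Slc40a1 (−2.30 to 1.09).

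The same libraries recurred across members. In *Tfrc*, *Ftl1*, *Slc11a2* and *Steap3* the 3 highest libraries were K089, L081 and L082. In *Slc40a1*, *Hmox1* and *Ireb2* they were K090, L080 and L078. For *Ireb2* the place of L078 was a near tie, at 119.7 CPM beside 119.4 in K089. L078 lay below the *Ireb2* mean of the 6 libraries (−0.02 log2 units). Over all genes tested, 2811 (20.8%) had the first trio highest and 3041 (22.6%) the other, so these orders were common and are not particular to iron genes. Each trio held both genotypes. The osteoclast markers moved with the first trio, which was highest in 12 of 15 of these genes, with 0 in the opposite order. The macrophage markers moved with the other, highest there in 10 of 12, with 1 (*Cd68*) in the first order. All 12 interferon response genes were also highest in K090, L080 and L078, with sums of 125 to 359 CPM in WT and 106 to 269 in *Slc37a2* KO. Markers of iron-recycling macrophages, of which *Spic* encodes a defining transcription factor, summed to 8.03 to 17.5 CPM over 6 genes, 4 of them tested. *Spic* and *Hpgd* were highest in K090, L080 and L078. The remaining 2 tested, *Vcam1* and *Cd163*, were highest in L082 (5.61 and 0.637 CPM before TMM) and followed neither order. The part of cell makeup or of the interferon genes in the levels of the iron genes was not tested.

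**Figure D4:**
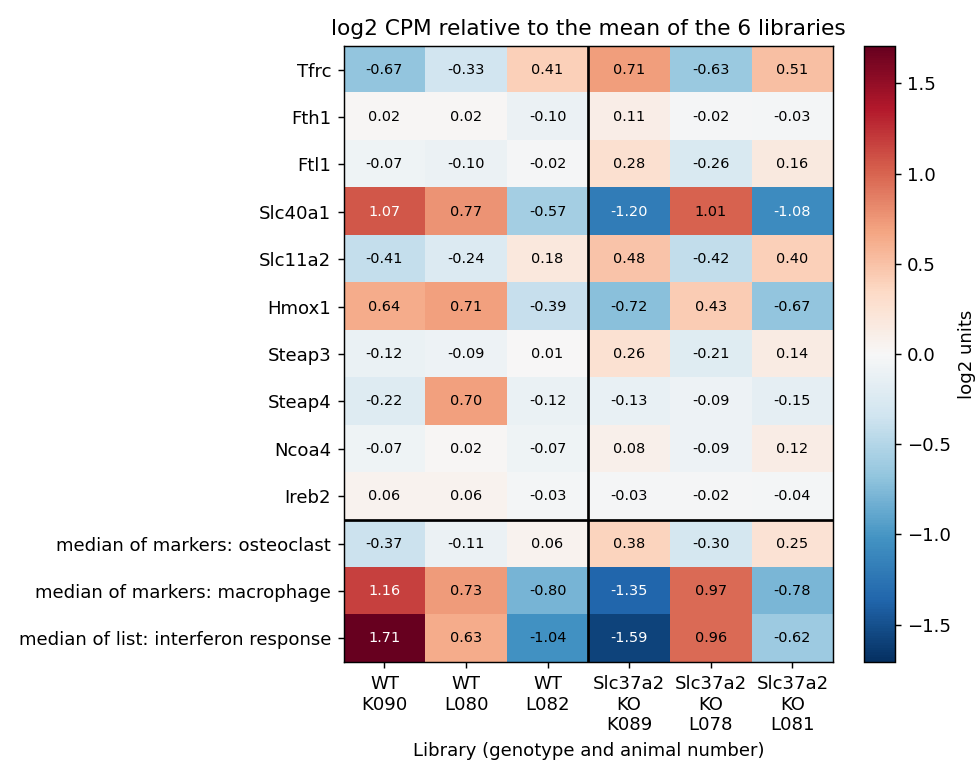
Deviation of log2 CPM from the mean of the 6 libraries (colour and number, log2 units) for each of the 10 genes and for the medians of the osteoclast, macrophage and interferon lists (rows), by library (columns, WT left and Slc37a2 KO right). Slc40a1 and Hmox1 are above their mean in K090, L080 and L078, as the macrophage and interferon medians are, and Tfrc and Slc11a2 in L082, K089 and L081, as the osteoclast median is.

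L078 was the KO library that lay with 2 WT libraries. Without L078, the log2 fold change of *Slc40a1* came to −1.72, of *Hmox1* to −1.09 and of *Steap4* to −0.32. The same fit gave 0.74 for *Tfrc*, 0.58 for *Slc11a2*, 0.28 for *Ftl1*, 0.26 for *Steap3*, 0.14 for *Ncoa4*, 0.06 for *Fth1* and −0.06 for *Ireb2*. Then *Ftl1*, *Slc40a1*, *Slc11a2*, *Hmox1* and *Steap3* (5 of 10) had an unadjusted p below 0.05 (edgeR, quasi-likelihood), beside 2732 of the 13585 genes then tested (20.1%). The lowest adjusted p among members was 0.227 by the same test. L078 was singled out by its levels in these same data, so these p-values follow that choice. With any other library left out, 0 of 10 members had an unadjusted p below 0.05 by that test, beside 0.232% to 1.98% of genes. Leaving out K089 brought the estimates of *Tfrc* (0.20), *Slc11a2* (0.21), *Ftl1* (0.05), *Steap3* (0.06), *Fth1* (0.01), *Slc40a1* (−0.24), *Hmox1* (−0.40) and *Ireb2* (−0.04) closer to 0. Among the other libraries, leaving out L082 gave 0.82 for *Tfrc*, 0.56 for *Slc11a2* and −0.94 for *Slc40a1*, and leaving out K090 gave 0.22, 0.22 and −0.28. Without L081, *Slc40a1* came to −0.27, *Fth1* to 0.09 and *Ireb2* to −0.03. No member was called with any library left out.

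Levels of the 10 genes were compared with each other per kilobase of the main annotated transcript, as CPM per kb averaged over the 6 libraries. *Ftl1* was at 6500.1 and ranked 4 of 12173 genes with a length, and *Fth1* at 2855 ranked 8. *Tfrc* followed at 435 (rank 127). The order of *Hmox1* (97.1) and *Slc11a2* (63.1) changed with the library. *Hmox1* was higher in 3 of 6 libraries, K090, L080 and L078 (120 to 145 beside 45.6 to 51.7 CPM per kb). *Slc11a2* was higher in L082, K089 and L081 (69.1 to 85.2 beside 54.3 to 67.9). *Ncoa4* (44.4) stood below *Slc11a2* in all 6. *Steap4* (24.2), *Ireb2* (21.1) and *Steap3* (20.2) lay close together, with the upper gene of a neighbouring pair above in 5 and 4 of 6 libraries. *Slc40a1* was the lowest at 10.9 CPM per kb, below *Steap3* in 5 of 6 libraries. With the length of all annotated exons in place of the main transcript, the orders of *Ncoa4* with *Steap4* and of *Ireb2* with *Steap3* turned. The levels moved as well, to 765 for *Fth1*, 30.0 for *Slc11a2*, 19.3 for *Ncoa4* and 4.07 for *Slc40a1*, so the values and ranks above hold for the main transcript only.

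The other genes of iron and heme handling gave the setting. Of 70 genes in 6 lists, 66 had a row used here and 57 were tested. None was called (0.00742% of all genes were) and none had an unadjusted p below 0.05 (0.712%), with 23 estimates higher and 34 lower in *Slc37a2* KO and a median of −0.04 on the log2 scale, beside −0.02 over all genes. All genes tested also leaned lower, with 5899 estimates higher and 7584 lower. The groups did not overlap in 2 of 57, beside 4.31% of all genes. These were *Mitf*, an osteoclast and lysosome transcription factor, and *Abcb10*, a mitochondrial transporter linked to heme synthesis, both named after their values were seen. *Mitf* was at 94.3, 95.9 and 99.7 CPM in WT and 91.7, 89.5 and 92.5 CPM in *Slc37a2* KO, and *Abcb10* at 33.1, 37.0 and 32.5 and at 32.1, 32.2 and 32.3 CPM.

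Of the 11 tested genes of iron entry and endosomal transport, 1 estimate was higher in *Slc37a2* KO (*Mcoln1*, a lysosomal channel that passes iron, 0.21, SE 0.16) and 10 were lower, with a median of −0.25. The lower ones include *Slc22a17*, *Cd163* and *Steap1*, which held few counts (means of 0.396, 0.409 and 1.03 CPM). *Lrp1*, a scavenger receptor that takes up heme bound to hemopexin, was at 1078, 995 and 755 CPM in WT and 699, 1001 and 682 CPM in *Slc37a2* KO, −0.25 (SE 0.20, −0.73 to 0.24), with L078 again beside K090 and L080. In this list *Trf*, *Hfe*, *Slc39a8*, *Slc11a1* and *Lrp1* (5 of 11) were highest in K090, L080 and L078, beside 22.6% of all genes. This was also the order of most macrophage markers, whose part in these levels was not tested.

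Storage, chaperone and export genes had 4 tested, 1 higher and 3 lower, with a median of −0.03. The iron chaperones *Pcbp2* (330 ± 13.0 and 326 ± 14.2 CPM in WT and *Slc37a2* KO) and *Pcbp1* (290.2 ± 16.2 and 305 ± 17.0) gave −0.02 (SE 0.07) and 0.07 (SE 0.08). Sensing and transcriptional genes had 9 tested, 2 higher and 7 lower, with a median of −0.08. *Aco1*, which encodes IRP1, was at 159, 171 and 177 CPM in WT and 198, 159 and 198 CPM in *Slc37a2* KO, 0.13 (SE 0.10, −0.12 to 0.38). *Fbxl5*, which marks IRP2 for degradation when iron is plentiful, was at 37.8 ± 3.19 and 36.4 ± 1.90 CPM, −0.05 (SE 0.08). *Ppargc1b*, a coactivator of mitochondrial genes in osteoclasts, gave 0.12 (SE 0.12). *Aco1* had its highest libraries where *Tfrc* did, whereas *Ireb2* did not.

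Heme synthesis genes had 8 tested, 4 higher and 4 lower and a median of 0.01. *Alas1*, the entry enzyme outside red cells, was at 117 ± 8.30 CPM in WT and 116 ± 3.88 in *Slc37a2* KO, −0.01 (SE 0.07, −0.18 to 0.17). *Fech*, which inserts iron into heme, was at 98.9, 96.4 and 119.9 CPM in WT and 140.5, 103 and 134 CPM in *Slc37a2* KO, 0.26 (SE 0.14, −0.09 to 0.60), the KO libraries overlapping WT through L078. Heme transport and breakdown had 8 tested, 3 higher and 5 lower, with a median of −0.08. *Slc48a1*, which carries heme out of the phagolysosome, gave −0.09 (SE 0.07), and *Flvcr1*, a heme exporter, 0.19 (SE 0.11). Mitochondrial iron and iron-sulfur cluster genes had 17 tested, 12 higher and 5 lower, with a median of 0.04 and estimates from −0.21 to 0.19. The transporter *Abcb8* gave 0.04 (SE 0.08), and 8 of the 17 had the same 3 highest libraries as *Tfrc*, beside 20.8% of all genes.

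**Figure D5:**
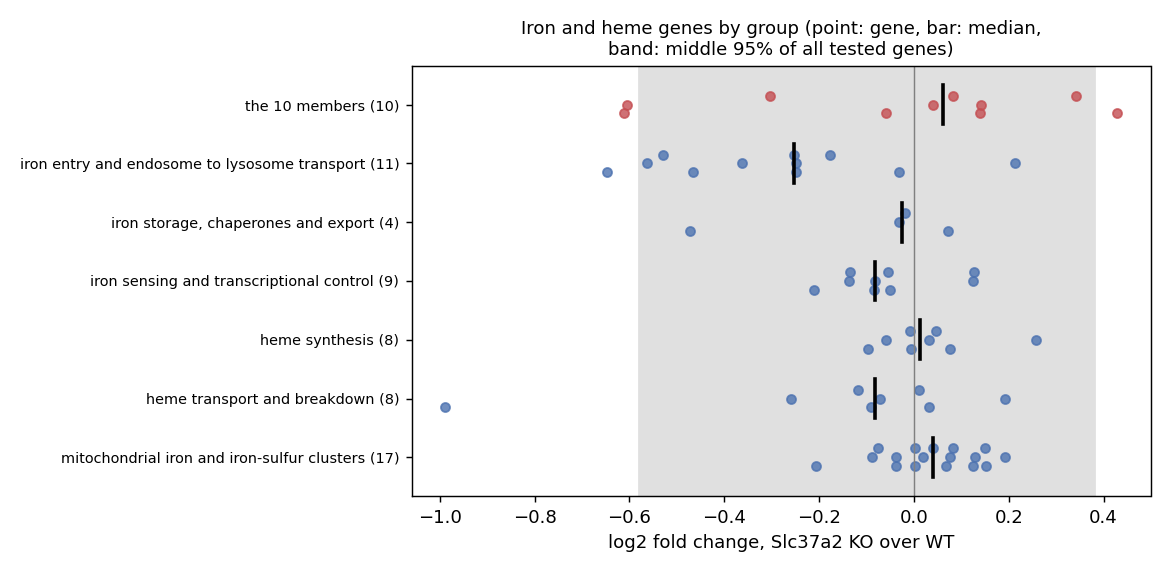
Difference between genotypes as log2 of KO over WT (x axis) of the 10 genes (red) and of the tested genes of 6 lists of other iron and heme genes (blue), each point a gene, black bars medians, and the grey band the middle 95% of all genes tested. The medians run from −0.25 for iron entry to 0.06 for the 10 genes, and no gene in the plot was called.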

How the data were processed

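RNAseq libraries (3 WT, 3 *Slc37a2* KO) were sequenced on an Illumina NovaSeq. The submitters' processing notes name bcl2fastq 2.20.0.422, mm10 and edgeR 3.30.3. For the aligner, counter, strand setting and annotation, the entry is "not given in the sources used here". What the authors deposited were whole-number counts per gene symbol, without normalization. The authors' columns of log2 fold change, mean log2 CPM, likelihood ratio score, p-value and FDR were not used, nor was a deposited list of the leading genes with the same counts. Columns of other samples numbered 0. No library was a copy of another (chi-square over degrees of freedom 6.72 for the closest pair).

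The tests used edgeR 4.0.16 in R 4.3.3 (filterByExpr defaults, TMM, glmQLFit, then glmQLFTest on genotype, Benjamini-Hochberg adjustment over 13483 genes, threshold 0.05), with limma 3.58.1 and DESeq2 1.42.0. Intervals are 95% intervals from estimate and standard error. The column headings give each library its own animal number, and p-values measure the spread between these libraries. Depth was 27552183 to 42522292 counts per library. Hairpins and figures were made with Python 3.11.15, with lengths and UTRs from GENCODE M21 on GRCm38, matched by symbol (10 of 10 members).

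The members, lists and tests were chosen with earlier results of these data known. Genes named were *Slc37a2*, the 10 members, the 2 tested genes of each of 6 lists with the highest mean CPM (not divided by length), *Aco1*, *Fbxl5* and any list gene called or with an unadjusted p below 0.05. A gene that this rule also takes is not reported here. *Mitf*, *Abcb10*, *Ftl1-ps2*, *Vcam1*, *Cd163*, *Steap1*, *Slc22a17* and genes sharing a library order were named after their values were seen. Alternatives were DESeq2's size factors, upper quartile scaling, total counts alone, no filter, at least 1 CPM in 3 libraries, the likelihood ratio test of edgeR, the Wald test of DESeq2, the letter of the animal number as a term, and each library left out. The fits were also run on simulated counts, only as a check of the code. Those counts held larger changes than any member's estimate and no split of the libraries, so they do not bear on the members.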

Additional observations from a re-analysis of the deposited data

How the results depend on the processing

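No member and no other iron or heme gene was called under any of 8 alternatives or with any of 6 libraries left out. The count of all genes called was 1, and 2 (with *En2*) without a filter, with edgeR's likelihood ratio test and with DESeq2's Wald test. With total counts alone *Fth1* came to −0.018, *Ncoa4* to 0.021, *Ftl1* to 0.073, *Steap3* to 0.075 and *Ireb2* to −0.114. The KO mean of *Ireb2* then came to 117 CPM. TMM factors were 1.03 to 1.06 in K090, L080 and L078 and 0.931 to 0.993 in L082, K089 and L081. Leaving out 1 library moved *Steap4* from −0.47 (without K090) to 0.045 (without L080), and *Slc40a1* from −1.72 (without L078) to −0.24 (without K089). *Slc37a2* stayed between −5.94 and −5.69, with the count of calls at 1 to 1 and of members called at 0 to 0. The estimates of the members other than *Fth1* and *Steap4* kept their sign under every alternative run. No paired analysis was possible because the columns carry no replicate number. Every member had at least 352 counts in each library, and the widest interval was that of *Slc40a1*, whose spread within genotypes was also the widest.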
